A study of Homo sapiens with 4 samples.

Results

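The genes described here are 37 chaperones, folding enzymes, stress sensors, degradation factors and translocon subunits of the endoplasmic reticulum (ER), taken by gene symbol from a table of 58735 genes. All 37 symbols were found once in the table. The rule names genes by function and uses no measured value, although earlier results of these data were known when the genes were chosen. The cells were SUP-M2, an established human cell line from ALK-positive anaplastic large cell lymphoma, a cancer of mature T cells. There were 4 RNA-seq libraries. By title, 2 came from cells with a scrambled hairpin (shscramble, genotype label control) and 2 from cells with a hairpin against GOLM1 (shGOLM1), whose genotype label says knockout. The labels name no other treatment or time, nor do they say whether replicates were separate cultures or whether 1 hairpin was used for both shGOLM1 libraries. The p-values therefore describe the spread of these 4 libraries alone, and that spread may be technical.

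Secreted and membrane proteins enter the ER through the SEC61 channel and fold there with the help of HSP70-type and lectin chaperones and of enzymes that make disulfide bonds. When unfolded protein accumulates, the membrane sensors IRE1 (encoded by ERN1), PERK (encoded by EIF2AK3) and ATF6 start the unfolded protein response. ATF6 and the spliced form of XBP1 induce chaperones and degradation factors, while PERK lowers translation and raises ATF4. Lymphocytes that secrete large amounts of protein, plasma cells above all, rely on this response. GOLM1 encodes a Golgi membrane protein, and the title of the series places it in resistance of this lymphoma to apoptosis.

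GOLM1 itself was at 212 and 213 CPM (reads scaled to a common library size with TMM factors) in the controls against 69.5 and 69.4 CPM with shGOLM1, which is 3.05-fold and 3.06-fold below the shscramble mean. Its log2 fold change was -1.61 (SE 0.27), with an adjusted p of 0.42 by edgeR's quasi-likelihood test, 0.0111 by its likelihood-ratio test and 0.0208 by DESeq2. The authors' deposited table gives a log2 fold change of -1.64 and the authors' adjusted p of 0.0531, which does not pass 0.05. The libraries held 27544171 to 31972153 counts. shGOLM1 replicate 2 stood apart: mitochondrially encoded genes took 0.455% of its counts, against 1.95% to 2.38% in the other libraries, and ribosomal-protein genes took 14.7%, against 6.57% to 8.77%. The part of these features in the results below was not tested, and each result is therefore given for each shGOLM1 library. Of 6 plasma cell markers, 3 had 0 counts in every library (JCHAIN, IGHG1 and TNFRSF17) and 5 stayed under 1 CPM, with summed levels of 0.643 and 1.02 CPM in shscramble and 4.26 and 4.61 CPM in shGOLM1, nearly all of it POU2AF1. In bulk libraries fewer cells of a type and less RNA per cell cannot be told apart. All 6 B cell markers stayed under 1 CPM. The 8 markers of the lymphoma and of activated T cells summed to 3099 and 3053 CPM in shscramble and to 4629 and 2230 CPM in shGOLM1. That sum hides opposite differences. TNFRSF8 was at 634 and 614 CPM in shscramble against 538 and 88.3 CPM with shGOLM1. PRF1 was at 2.91 and 2.70 against 620 and 145 CPM. BATF3 also lay lower in both shGOLM1 libraries and CD4 higher in both, while ALK, IL2RA, GZMB and IRF4 did neither. The myeloid list was at 231 to 310 CPM, of which CSF1R was nearly all, and 4 of 5 epithelial and 4 of 5 fibroblast markers stayed under 1 CPM.

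Of the 37 genes, 36 had enough counts to be tested. DERL3, a derlin of secretory cells, had 0 counts in all 4 libraries, which allows up to 3 counts or 0.0864 to 0.132 CPM by counting error only. Its exons share 77.0% of their bases with SMARCB1 on the opposite strand, and no source used here gives the strand setting of the counting. Exons of 21 of the 37 genes overlap another gene, and for 7 of them (DNAJB9, DNAJB11, CRELD2, SYVN1, DERL1, DERL2 and SEC61A1) an overlapping gene had at least 10% as many counts, so that reads of both may be mixed.

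In edgeR's quasi-likelihood test over 14166 genes, 0 of the 36 genes passed an adjusted p under 0.05 in either direction, against 0% of all genes, and the smallest adjusted p among them was 0.42. An unadjusted p under 0.05 was reached by 4, all higher in shGOLM1, a share of 11.1% against 8.2% of all genes higher and 3.58% lower: DNAJB9, CANX, EDEM1 and ERN1. DESeq2 called 1 of the 36 higher, DNAJB9, against 3.42% of all genes higher and 0.339% lower. The authors' deposited table also calls DNAJB9 and none of the other 35, against 2.12% of genes higher and 0.165% lower.

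Both shGOLM1 libraries lay above both shscramble libraries for 19 of the 36 genes, against 25.2% of all tested genes, and below both for 3 (SDF2L1, ATF6 and DNAJB11), against 26.5%. The median difference from the shscramble mean was 0.20 (log2 CPM) in shGOLM1 replicate 1 and 0.50 in replicate 2, beside 0.0022 and -0.03 over all tested genes. shGOLM1 replicate 1 by itself lay above both controls for 22 genes (44.5% of all genes) and below both for 10 (45%), and replicate 2 above for 28 (45.9%) and below for 6 (48.1%). At least 2-fold from the shscramble mean were 2 genes higher (13.9% of all genes) and 0 lower (6.48%) in replicate 1, and 11 higher (23.7%) and 2 lower (25.8%) in replicate 2. The replicates of shGOLM1 differed more than those of shscramble, with median coefficients of variation of 25.6% and 4.08% over these genes and of 45.9% and 7.49% over all tested genes.

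Taken alone against the shscramble pair, each shGOLM1 library passed edgeR's test for many of these genes. Such a fit assumes that the lone library varies like the controls, and it compares libraries, not conditions. The genes named below were called under TMM factors, and some calls changed under library totals. There PDIA4, PDIA6, DERL2 and OS9 were not called in replicate 2, and SYVN1 was called higher in both. HYOU1 and SEC61A1 were then called in opposite directions, while MANF and SELENOS no longer were. DNAJB11, CRELD2 and EDEM2 were called lower in replicate 2 only, and SEC61B in neither. Replicate 1 had 16 genes higher and 6 lower, against 20.4% and 24.1% of all genes, and replicate 2 had 24 higher and 3 lower, against 33.3% and 34.1%. With library totals in place of TMM factors the split became 18 higher and 3 lower in replicate 1 and 16 higher and 8 lower in replicate 2, a scaling that moved the median of all genes to 0.13 and -0.30 (log2). The same 12 genes passed as higher in both fits, against 9.83% of all genes: DNAJB9, DNAJC3, CANX, P4HB, ERO1A, XBP1, ERN1, EIF2AK3, EDEM1, DERL1, SSR1 and SSR3. Under library totals 9 of them were still called in both, without DNAJC3, SSR1 and SSR3. SDF2L1 alone was lower in both, against 14.2% of all genes, under TMM and under library totals. A further 10 genes passed as higher only in replicate 2, against 15.8% of all genes: HSPA5, HSP90B1, PDIA3, PDIA4, PDIA6, HERPUD1, SYVN1, DERL2, OS9 and SEC61G. HYOU1, SEL1L and SEC61A1 were higher only in replicate 1, against 5.27% of all genes, and DNAJB11, ATF6B and SEC61B were lower only there, against 5.55%. ATF6 was lower only in replicate 2, against 17.4%. Opposite calls were made for 3 genes, against 11.4%: EDEM3 was higher in replicate 1 and lower in replicate 2 (5.36% of all genes), and MANF and SELENOS the reverse (6.04%). CALR, CRELD2 and EDEM2 were called in neither, against 20.6%.

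**Figure D1:**
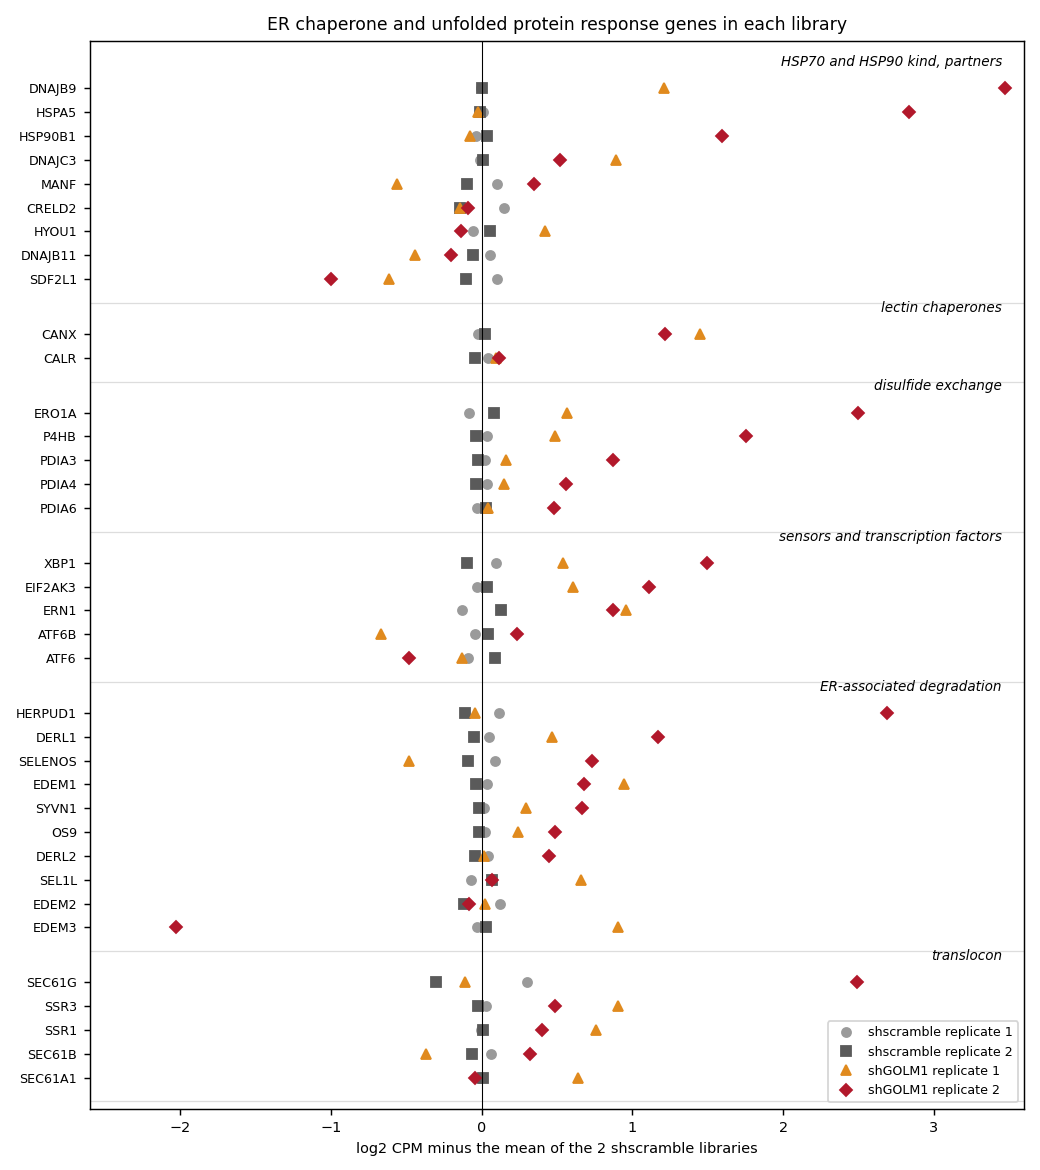
Log2 CPM minus the mean of the 2 shscramble libraries (horizontal axis) for the 36 tested genes, grouped by role, with one point per library. In shGOLM1 replicate 2 (red diamonds) DNAJB9, HSPA5, HERPUD1, ERO1A and SEC61G lie farthest to the right and EDEM3 farthest to the left, while CANX, ERN1 and EDEM1 have both shGOLM1 libraries to the right.

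Promoters of such genes are known for ER stress response elements, which ATF6 and XBP1 bind, so the promoter sequences of these genes were searched for them. RefSeq promoter entries on GRCh38.p14 (250 bases before to 50 bases after the start) were present for 34 of the 37 genes, and DERL1, PDIA3 and DERL3 had no entry. Both strands were searched for ERSE, which is CCAAT and CCACG with any 9 bases between, for ERSE-II, which is ATTGG and CCACG with any 1 base between, and for the UPRE, TGACGTGG. ERSE was found in 7 of the 34 genes, and in 0.0916% of all 27305 genes with entries, which have 35116 promoters of this length. ERSE-II was found in 3 of the 34 and in 0.0696% of all genes with entries, and the UPRE in 2 and in 0.927%. Among 84 other ER pathway genes with entries, from the lists described below, ERSE was found in 1, ERSE-II in 0 and the UPRE in 8. Many of the 37 genes are known targets of the response, so these shares describe them and are no test. The ERSE matches are shown with 5 bases on each side, read 5′ to 3′ along the element, with the match in capitals.
HSPA5 (chromosome 9, 125241391 to 125241409): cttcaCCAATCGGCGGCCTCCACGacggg
HSP90B1 (chromosome 12, 103930216 to 103930234): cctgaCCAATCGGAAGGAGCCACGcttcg
HSP90B1 (chromosome 12, 103930321 to 103930339): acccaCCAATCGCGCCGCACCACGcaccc
CALR (chromosome 19, 12938384 to 12938402): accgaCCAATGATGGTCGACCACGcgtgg
CANX (chromosome 5, 179698778 to 179698796): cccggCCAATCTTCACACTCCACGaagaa
PDIA6 (chromosome 2, 10812853 to 10812871): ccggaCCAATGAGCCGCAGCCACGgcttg
XBP1 (chromosome 22, 28800603 to 28800621): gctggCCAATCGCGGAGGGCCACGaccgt
CRELD2 (chromosome 22, 49918554 to 49918572): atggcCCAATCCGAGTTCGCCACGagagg

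The match of CALR, the match of CRELD2 and the second match of HSP90B1 lie on the strand opposite to the gene. The ERSE-II matches, of which those of HYOU1 and SDF2L1 are also on the opposite strand, are shown in the same way because HERPUD1 and SDF2L1, which carry it, lay on opposite sides of the controls in replicate 2.
HERPUD1 (chromosome 16, 56932025 to 56932035): cgccgATTGGGCCACGttggg
HYOU1 (chromosome 11, 119057274 to 119057284): tactcATTGGACCACGtccca
HYOU1 (chromosome 11, 119057380 to 119057390): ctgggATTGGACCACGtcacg
SDF2L1 (chromosome 22, 21642114 to 21642124): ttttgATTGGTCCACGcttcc

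The UPRE match of HYOU1 overlaps its second ERSE-II match. The ERSE of HSPA5, the highest of the 36 genes in shGOLM1 replicate 2 by FPKM, is centred 57 bases before the start, and the 250 bases before the start are given as context (chromosome 9, 125241344 to 125241593, minus strand), with the match in capitals.
HSPA5: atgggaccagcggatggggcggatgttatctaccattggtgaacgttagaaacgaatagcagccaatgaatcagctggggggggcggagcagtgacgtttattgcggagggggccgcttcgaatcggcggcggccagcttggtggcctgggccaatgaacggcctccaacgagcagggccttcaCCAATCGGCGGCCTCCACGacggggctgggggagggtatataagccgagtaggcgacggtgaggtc

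The genes with an ERSE match differed in the size of their fold. All but CRELD2, which lay between its controls, were above both controls in shGOLM1 replicate 2. By TMM-scaled CPM, HSPA5, HSP90B1 and CRELD2 lay below both controls in replicate 1 and the others above both. In shGOLM1 replicate 2 the fold over the shscramble mean was 7.13 for HSPA5, 3.02 for HSP90B1, 2.81 for XBP1, 2.32 for CANX, 1.39 for PDIA6, 1.08 for CALR and 0.934 for CRELD2. In replicate 1 it was 0.984, 0.949, 1.45, 2.73, 1.03, 1.07 and 0.899 for the same genes in the same order. Among the carriers of ERSE-II, the fold over the shscramble mean in replicates 1 and 2 was 0.969 and 6.45 for HERPUD1, 1.34 and 0.909 for HYOU1 and 0.652 and 0.498 for SDF2L1. A match in this window is a description of the sequence and does not show that a factor bound it.

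**Figure D2:**
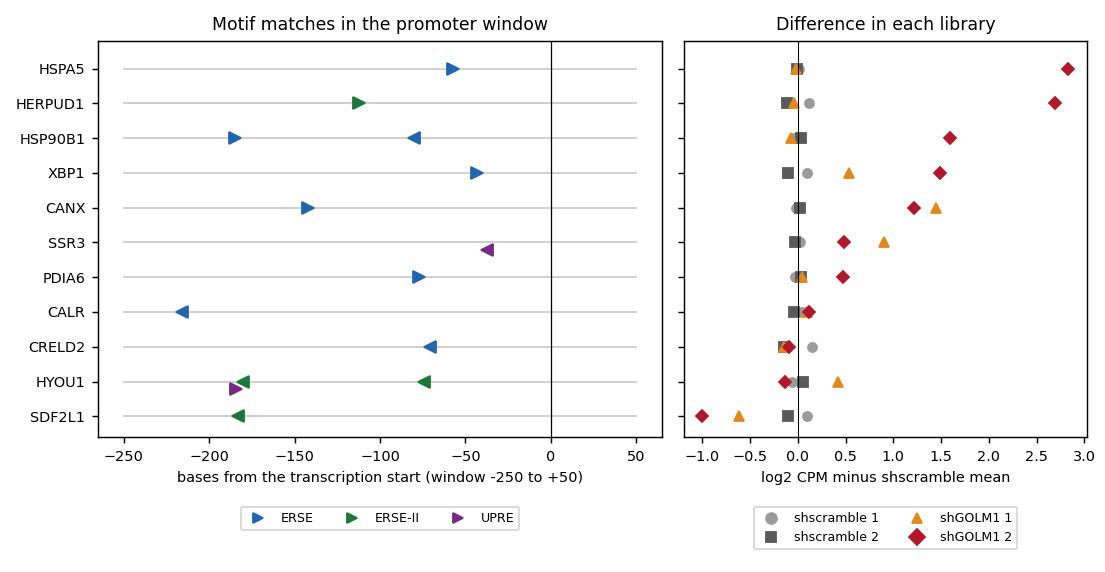
Left, positions of the ERSE, ERSE-II and UPRE matches relative to the transcription start (bases; arrows to the right are on the gene's strand, and for CANX, which has several starts, 1 is shown). Right, log2 CPM minus the shscramble mean of the same genes in each library, from HSPA5 at the top to SDF2L1 at the bottom in the order of shGOLM1 replicate 2.

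Of the 9 chaperones of the HSP70 and HSP90 kind and their partners, DNAJB9 and DNAJC3 lay above both controls in both shGOLM1 libraries, and SDF2L1 and DNAJB11 below. HSPA5, which encodes BiP, the HSP70 chaperone that also holds the sensors inactive, was at 714 and 704 CPM in the scrambled controls against 698 and 5058 CPM with shGOLM1. Replicate 2 was thus 7.13-fold above the shscramble mean while replicate 1 lay just below both controls. With library totals in place of TMM factors, replicate 1 lay above both controls as well. The log2 fold change was 2.02 (SE 1.00), and edgeR gave an adjusted p of 0.48. Without replicate 2 it was -0.039. HSP90B1, the HSP90 chaperone of the ER lumen, followed the same order at 619, 652, 603 and 1918 CPM, with replicate 2 3.02-fold above the shscramble mean.

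DNAJB9, a J-domain partner that helps BiP restrain IRE1, was at 11.03 and 11.1 CPM in the scrambled controls against 25.7 and 123 CPM with shGOLM1 (chromosome 7, 108569568 to 108574850, GRCh38). Both shGOLM1 libraries lay above both controls, 2.32-fold and 11.2-fold over the shscramble mean. The group means were 11.1 ± 0.0432 and 74.6 ± 69.1 CPM (SD, n = 2 each). Its log2 fold change was 2.75 (SE 0.83), and its adjusted p was 0.42 by edgeR and 0.0145 by DESeq2. The authors' deposited table gives a log2 fold change of 2.73. Its exons overlap those of THAP5 by 6.45% and those of PNPLA8 by 3.49%, both on the opposite strand. THAP5 was at 32.5, 31.6, 37.8 and 13.1 CPM and PNPLA8 at 37.9, 37.5, 30.2 and 88.9 CPM in shscramble replicates 1 and 2 and shGOLM1 replicates 1 and 2.

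DNAJC3, a BiP partner that also inhibits PERK, was at 60.0 and 60.9 CPM in the scrambled controls against 112 and 86.5 CPM with shGOLM1, higher in both, with a log2 fold change of 0.72 (SE 0.29) and an adjusted p of 0.439 by edgeR. SDF2L1, a subunit of BiP complexes, was at 58.5 and 50.8 against 35.7 and 27.2 CPM, with both shGOLM1 libraries below both controls. Its log2 fold change was -0.80 (SE 0.31), and edgeR gave an adjusted p of 0.43. DNAJB11, another BiP partner, also lay lower in both, at 67.1 and 62.2 against 47.6 and 56.0 CPM.

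The remaining chaperones of this kind lay closer to the controls in replicate 2 than HSPA5 did. HYOU1, a large HSP70-like exchange factor, was at 182 and 197 CPM in the scrambled controls against 254 and 172 CPM with shGOLM1. MANF, a secreted cofactor of BiP, was at 74.6 and 65.0 against 47.2 and 88.5 CPM, on either side of the controls. CRELD2, an ER stress-induced lumenal protein, was at 35.6 and 29.1 against 29.03 and 30.2 CPM, with 1 shGOLM1 library between the controls and the other within 0.1 CPM of the lower one.

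The calnexin and calreticulin pair, lectins that hold newly glycosylated proteins, differed. CANX, the membrane-bound calnexin (chromosome 5, 179678628 to 179730925), was at 1270 and 1309 CPM in the scrambled controls against 3524 and 2998 CPM with shGOLM1. Both shGOLM1 libraries lay above both controls and close to each other, 2.73-fold and 2.32-fold over the shscramble mean. The log2 fold change was 1.34 (SE 0.38), with the smallest unadjusted p of the 36 genes, 0.0208, and an adjusted p of 0.42 by edgeR (0.0694 by DESeq2). CALR, the soluble calreticulin, was at 1014 and 958 against 1055 and 1067 CPM, with a log2 fold change of 0.11 (SE 0.33) and an adjusted p of 0.905 by edgeR.

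**Figure D3:**
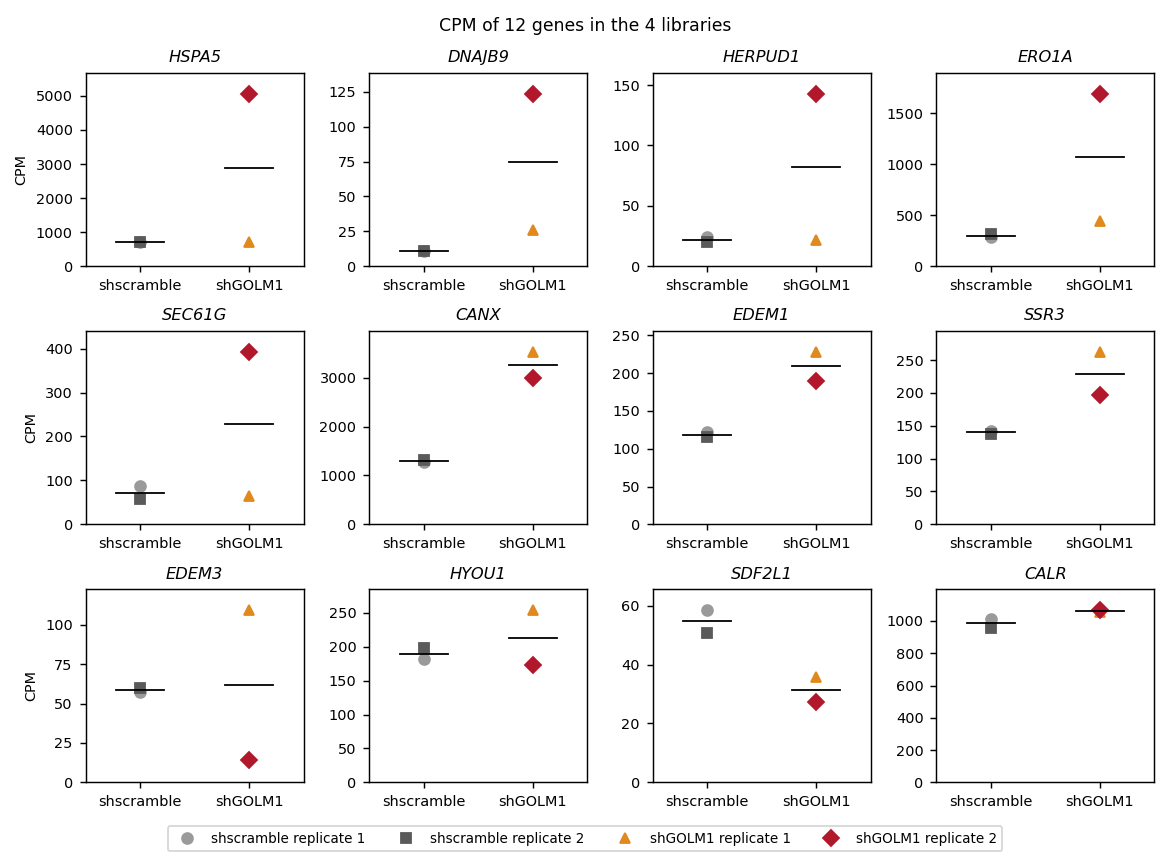
CPM (vertical axis, each from 0) of 12 genes in the shscramble and shGOLM1 libraries, with one symbol per library and a line at each group mean. HSPA5, HERPUD1 and SEC61G are high only in shGOLM1 replicate 2, CANX, EDEM1 and SSR3 are higher in both shGOLM1 libraries, SDF2L1 is lower in both, and EDEM3 is split.

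Enzymes of disulfide exchange lay above both controls in both shGOLM1 libraries for 5 of 5 genes, against 25.2% of all genes, though the differences of replicate 1 were small for 3 of them. ERO1A, the oxidase that recharges protein disulfide isomerase, was at 283 and 318 CPM in the scrambled controls against 445 and 1690 CPM with shGOLM1. It was 1.48-fold and 5.62-fold over the shscramble mean, with a log2 fold change of 1.83 (SE 0.72) and an adjusted p of 0.43 by edgeR. P4HB, protein disulfide isomerase itself, was at 637 and 607 against 873 and 2094 CPM, with a log2 fold change of 1.26 (SE 0.54) and an adjusted p of 0.448 by edgeR.

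PDIA3, the isomerase that works with calnexin and calreticulin, was at 333 and 323 against 366 and 598 CPM, with a log2 fold change of 0.56 (SE 0.38) and an adjusted p of 0.566 by edgeR. Reads of its processed copy PDIA3P1 amounted to 3.61% of the counts of PDIA3, and reads can be split between them. PDIA4 was at 349 and 333 against 377 and 501 CPM, and PDIA6 at 261 and 273 against 275 and 372 CPM. In all of these replicate 2 stood higher than replicate 1.

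Among the sensors, the 2 kinases of the response lay higher in both shGOLM1 libraries and the ATF6 genes did not. ERN1, the kinase and nuclease that splices XBP1 mRNA, was at 11.8 and 14.2 CPM in the scrambled controls against 25.2 and 23.7 CPM with shGOLM1. The log2 fold change was 0.92 (SE 0.33), with an unadjusted p of 0.0444 and an adjusted p of 0.42 by edgeR. EIF2AK3, the kinase that phosphorylates translation factor eIF2, was at 14.1 and 14.7 against 21.98 and 31.1 CPM, with a log2 fold change of 0.88 (SE 0.35).

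XBP1, the transcription factor activated by that splicing, was at 47.4 and 41.4 CPM in the scrambled controls against 64.3 and 125 CPM with shGOLM1, with a log2 fold change of 1.09 (SE 0.43). Counts per gene do not separate its spliced and unspliced mRNA. ATF6, cleaved in the Golgi to release a transcription factor, was at 79.8 and 90.5 against 77.7 and 60.8 CPM, below both controls in both libraries, with a log2 fold change of -0.30 (SE 0.30). Its relative ATF6B was at 65.8 and 69.9 against 42.8 and 79.8 CPM, on both sides of the controls, with a log2 fold change of -0.15 (SE 0.40). The adjusted p of these 5 genes ran from 0.421 to 0.893 in edgeR.

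Factors of ER-associated degradation, which returns misfolded proteins to the cytosol, lay higher in both shGOLM1 libraries for 5 of the 10 tested and lower in both for 0, against 25.2% and 26.5% of all genes. One of the 5 is SEL1L, whose replicate 2 was at 162.1 CPM beside a control at 161.9 CPM. EDEM1, a mannosidase-like lectin that marks glycoproteins for disposal, was at 122 and 116 CPM in the scrambled controls against 228 and 190 CPM with shGOLM1, with a log2 fold change of 0.82 (SE 0.28) and an unadjusted p of 0.0393 by edgeR. DERL1, a channel component, was at 97.3 and 90.6 against 130 and 211 CPM, with a log2 fold change of 0.86 (SE 0.36) and an adjusted p of 0.44 by edgeR. SYVN1, the membrane ubiquitin ligase HRD1, was at 46.7 and 45.6 against 56.7 and 73.3 CPM. Its exons overlap those of FAU on the same strand by 7.24%, and FAU was at 322, 260, 224 and 454 CPM in the 4 libraries in the same order.

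SEL1L, the partner of that ligase, was at 147 and 162 against 243 and 162 CPM, and the lectin OS9, which delivers clients to it, was at 71.7 and 69.8 against 83.5 and 99.2 CPM. HERPUD1, a stress-induced scaffold of the same complex, was at 23.9 and 20.4 CPM in the scrambled controls against 21.4 and 143 CPM with shGOLM1. Like HSPA5 it was high in replicate 2 alone, 6.45-fold over the shscramble mean, and its log2 fold change was 1.89 (SE 0.94, edgeR adjusted p 0.481) with that library and -0.062 without it.

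EDEM3, a second mannosidase of the EDEM family, split the shGOLM1 pair. It was at 57.2 and 59.6 CPM in shscramble, at 109 CPM in shGOLM1 replicate 1 and at 14.3 CPM in replicate 2, 1.87-fold above and 4.10-fold below the shscramble mean. EDEM2 was at 30.7 and 26.0 against 28.7 and 26.7 CPM. SELENOS, a selenoprotein that recruits the extraction machinery, was at 30.4 and 26.8 against 20.4 and 47.5 CPM, and DERL2, a second derlin, was at 38.0 and 35.9 against 37.4 and 50.3 CPM.

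Of the translocon genes, the translocon-associated proteins SSR1 and SSR3 lay higher in both shGOLM1 libraries. SSR1 was at 589 and 596 CPM in the scrambled controls against 1001 and 780 CPM with shGOLM1, and SSR3 at 143 and 138 against 262 and 197 CPM, with log2 fold changes of 0.59 (SE 0.34) and 0.71 (SE 0.30) and adjusted p of 0.512 and 0.447 by edgeR. In both genes replicate 1 was the higher of the pair, the reverse of HSPA5 and ERO1A.

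The 3 subunits of the SEC61 channel did not share a direction. SEC61A1, the pore, was at 420 and 425 against 657 and 410 CPM, and SEC61B, a small subunit, at 53.1 and 48.5 against 39.2 and 63.4 CPM. SEC61G, the smallest subunit, was at 86.3 and 56.7 CPM in the scrambled controls against 64.7 and 392 CPM with shGOLM1, 5.49-fold over the shscramble mean in replicate 2 and between the controls in replicate 1. Its log2 fold change was 1.68 (SE 0.91, edgeR adjusted p 0.50). It was also the only one of the 36 genes with a coefficient of variation above 20% between the shscramble libraries, at 29.3%.

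On the scale of the authors' FPKM, which allows levels to be compared between genes per length, the 36 genes covered a wide range in shscramble. CALR was highest at 360 FPKM as a mean of both libraries, followed by CANX at 205, HSPA5 at 180, HSP90B1 at 134 and P4HB at 116 FPKM. ERN1 at 1.18, EIF2AK3 at 2.62, DNAJB9 at 3.86 and HERPUD1 at 4.25 FPKM were lowest. In shGOLM1 replicate 1 CANX came first at 550 FPKM with CALR at 378 and HSPA5 at 174 FPKM. In replicate 2 HSPA5 came first at 1259 FPKM, above CANX at 468, HSP90B1 at 397, P4HB at 384 and CALR at 382 FPKM. The 37 genes together took 0.832% and 0.853% of all counts in shscramble and 1.35% and 1.66% in shGOLM1, and HSPA5 made up 8.77%, 8.70%, 5.83% and 25.2% of that sum.

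**Figure D4:**
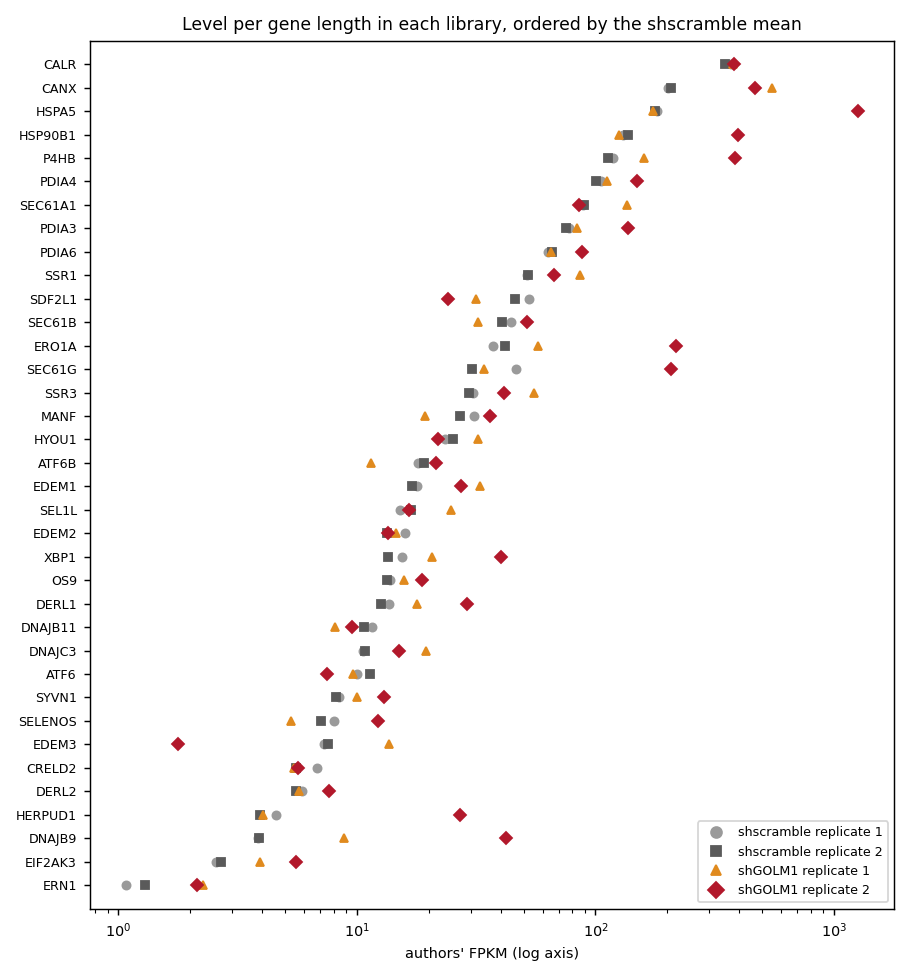
The authors' FPKM of each tested gene in the 4 libraries (log axis), ordered by the shscramble mean from ERN1 at 1.18 to CALR at 360 FPKM. HSPA5 in shGOLM1 replicate 2 is the highest single value, at 1259 FPKM.

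Another 100 genes of the ER pathway were listed by role, of which 98 were tested and 0 passed edgeR over all genes, while at an unadjusted p under 0.05 there were 8 higher and 3 lower, 8.16% and 3.06% against 8.2% and 3.58% of all genes. Their median differences from the shscramble mean were 0.09 and 0.42 (log2 CPM) in shGOLM1 replicates 1 and 2, and both shGOLM1 libraries lay above both controls for 36 (36.7% against 25.2% of all genes) and below for 16 (16.3% against 26.5%). DESeq2 called 5 of them higher (5.1% against 3.42% of all genes) and 0 lower (against 0.339%), namely DDIT3, PPP1R15A, ASNS, ATF3 and SESN2, all from the list of PERK and ATF4 output.

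The 9 genes of PERK and ATF4 output were all called higher in shGOLM1 replicate 2 taken alone, against 33.3% of all genes higher and 34.1% lower. In replicate 1 alone 4 were higher and 3 lower, against 20.4% and 24.1% of all genes. ATF4, the transcription factor of this branch, was at 379 and 351 CPM in the scrambled controls against 191 and 1512 CPM with shGOLM1. DDIT3, which encodes the death-linked factor CHOP, was at 13.0 and 10.8 against 6.71 and 319 CPM. PPP1R15A, the phosphatase subunit that reverses the PERK signal, was at 26.5 and 22.3 against 30.6 and 854 CPM. For ATF4 and DDIT3 replicate 1 lay below both controls and replicate 2 above them.

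ATF3 and SESN2, both induced by ATF4, lay higher in both. ATF3 was at 30.7 and 30.4 against 67.3 and 641 CPM, with a log2 fold change of 3.54 (SE 1.15) and an adjusted p of 0.42 by edgeR (0.00479 by DESeq2). With the replicate number as a block ATF3 passed edgeR, with an adjusted p of 0.0242, although nothing in the labels pairs equal replicate numbers. SESN2 was at 19.0 and 19.8 against 46.1 and 170 CPM. The list of PERK and ATF4 output, a name given by role, had median differences of 0.33 and 3.13, against 0.20 and 0.50 for the 36 genes above. Whether PERK itself was active in these cells was not tested.

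Genes of N-glycosylation, which attaches the glycans that calnexin reads, lay higher in both shGOLM1 libraries for 6 of 12 and lower in both for 0, against 25.2% and 26.5% of all genes. STT3A, a catalytic subunit of oligosaccharyltransferase, was at 239 and 251 CPM in the scrambled controls against 416 and 424 CPM with shGOLM1, and UGGT2, a glucosyltransferase of the calnexin cycle, was at 17.9 and 21.5 against 24.1 and 48.6 CPM.

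Among other folding enzymes, 6 of 18 lay higher in both and 3 lower in both, against 25.2% and 26.5% of all genes. SIL1, a nucleotide exchange factor of BiP, was at 17.1 and 13.9 against 35.4 and 64.8 CPM, and DNAJC1, a membrane-bound J-domain protein, at 32.9 and 30.7 against 41.6 and 93.0 CPM. In other translocation genes 8 of 19 lay higher in both and 5 lower in both, against the same 25.2% and 26.5%. The pore paralog SEC61A2 was at 4.04 and 4.27 against 10.6 and 12.6 CPM, and SSR4, a partner of SSR1 and SSR3, was at 88.4 and 78.9 against 130 and 257 CPM.

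Of the other degradation factors 4 of 20 lay higher in both and 5 lower in both, near the shares over all genes of 25.2% and 26.5%. UBE2J2, a ubiquitin-conjugating enzyme of the ER membrane, was at 91.6 and 77.7 against 52.1 and 39.4 CPM, and the J-domain protein DNAJB12 at 37.1 and 35.5 against 22.3 and 12.7 CPM. Among other stress transducers, 3 of 11 lay higher in both and 2 lower in both, against the same 25.2% and 26.5%. CREB3L2, an ATF6-like membrane factor, was at 24.0 and 26.5 against 94.3 and 56.8 CPM. TRAF2, an adaptor that IRE1 recruits, was at 35.0 and 32.3 against 16.3 and 16.8 CPM, with a log2 fold change of -1.02 (SE 0.30) and an adjusted p of 0.42 by edgeR.

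**Figure D5:**
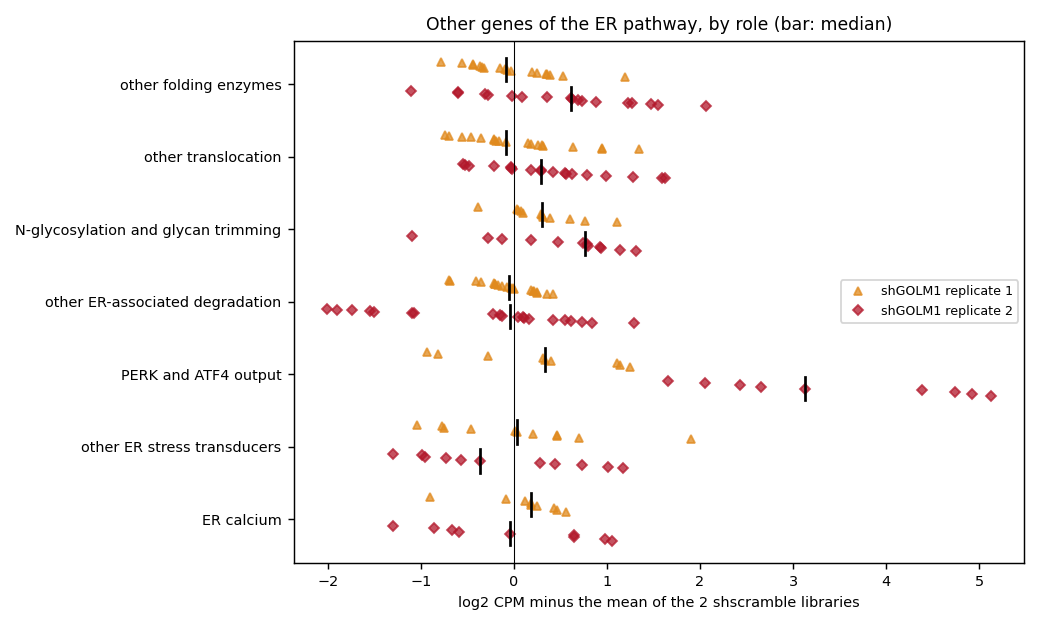
Log2 CPM minus the shscramble mean (horizontal axis) of the 98 other tested ER pathway genes by role, with one point per gene and shGOLM1 library and a bar at the median. The PERK and ATF4 output stands at a median of 3.13 in replicate 2 and 0.33 in replicate 1, while the other lists have medians between -0.37 and 0.76 in replicate 2.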

How the data were processed

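RNA-seq was done on 4 libraries of SUP-M2, grouped by their titles. Per the labels' protocols, total RNA was purified with a Qiagen RNeasy kit and made into libraries with the SMARTER kit for mRNA. No source used here gives the aligner, the counter or the strand setting. The submitters' processing notes name GRCm38 and mm10, but all 58735 identifiers and coordinates in the table equal those of human GENCODE 29, and 0 are mouse.

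Per the file headers, the table holds a raw count for each gene and library. The FPKM in it were made by the authors and were used only for levels between genes. The authors also deposited a mean normalized signal per group, not used here, and their own log2 fold change with p-value and adjusted p-value, printed as the authors' values.

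edgeR 4.0.16 (limma 3.58.1, R 4.3.3) was run on the counts with TMM factors of 1.02, 1.05, 1.12 and 0.828, filterByExpr and the quasi-likelihood test, two-sided, with Benjamini-Hochberg adjustment over 14166 genes and a threshold of 0.05. CPM use TMM-scaled totals, log2 CPM a prior count of 2. Totals were 31972153 and 31608073 in shscramble and 30889185 and 27544171 in shGOLM1. The limit for a count of 0 is 3 reads in a library. Counts of the shscramble pair varied more than sampling allows, at a chi-square of 13.8 per gene, and those of the shGOLM1 pair at 508. Both libraries of each pair were kept as replicates, although such variation does not show that they were separate cultures. DESeq2 1.42.0 was run on the same filtered genes. Exon overlaps came from GENCODE 29, promoters from RefSeq (GRCh38.p14).

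By rule, every one of the 37 genes was named, with full values for GOLM1, the 5 sensors and transcription factors and, in each role, up to 3 genes of lowest unadjusted p. Each list of other ER genes gave up to 2, again those of lowest unadjusted p, provided their mean reached 1 CPM. The folds of HSPA5, HSP90B1 and EDEM3, and the levels of ATF4, DDIT3 and PPP1R15A, were added after their values were seen. Members and lists were chosen with earlier results of these data known. Alternatives were other scalings, filters and tools, a replicate block and each library left out. The scripts were tested on simulated data. Figures were drawn with matplotlib 3.10.9.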

Additional observations from a re-analysis of the deposited data

How the results depend on the processing

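edgeR called 0 of the 36 genes and 0 of 14166 genes. With no filter on low counts, with DESeq2 and with edgeR's likelihood-ratio test it was 1 of the 36 each, DNAJB9, with adjusted p of 0.0452, 0.0145 and 0.0481, and 192, 533 and 496 of all genes. The adjusted p of DNAJB9 ran up to 1.0 over all alternatives. With each library left out, calls ran from 0 to 27 among the 36 and from 20 to 10290 over all genes, the high values coming from fits without shGOLM1 replicate 1 (27) or replicate 2 (22), where 1 shGOLM1 library is taken to vary as the controls do. Genes above both controls in both shGOLM1 libraries numbered 19 to 28, and genes below both 3 to 10, with each library left out, an alternative chosen after seeing the data. Leaving out a library drops a condition, so these counts could only stay or rise, and their range is no check of stability. With all libraries kept, the counts of 19 and 3 were the same under library totals and size factors of the DESeq2 kind. The genes behind them were not all the same under library totals. There HSPA5 and DERL2 joined the higher genes while CALR and SEL1L left them, and ATF6B took the place of ATF6 among the lower genes.

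With a library left out, log2 fold changes took both signs for 12 of the 36 genes: HSPA5 (-0.039 to 2.79), HSP90B1 (-0.091 to 1.55), HYOU1 (-0.19 to 0.40), MANF (-0.58 to 0.29), ATF6B (-0.68 to 0.19), HERPUD1 (-0.062 to 2.64), EDEM2 (-0.19 to 0.048), EDEM3 (-2.08 to 0.89), SELENOS (-0.50 to 0.68), SEC61A1 (-0.089 to 0.62), SEC61B (-0.39 to 0.27) and SEC61G (-0.16 to 2.41). Genes of the other ER lists also took both signs, among them ATF4 and DDIT3. The filter of at least 5 CPM turned MANF to 0.078 and EDEM2 to 0.084, limma-voom turned EDEM3 to -0.48, and SEC61B became -0.12 with library totals, -0.068 with no filter and -0.042 in limma-voom. The causes were not tested.

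Nothing in the labels pairs the replicate numbers, and the deviations of same-numbered libraries correlated at -0.0947 across genes, which are not independent replicates. With the replicate number as a block 203 of all genes and 0 of the 36 were called, EDEM3 became -0.56 and SEC61B -0.024.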

Other observations

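Among genes that hold or release calcium in the ER, a store that calreticulin and BiP need, 9 of 10 listed were tested and 0 passed edgeR over all genes, the adjusted p of RCN2 being 0.42. RCN2, a calcium-binding protein of the secretory pathway, was at 100.5 and 93.9 CPM in the scrambled controls against 51.99 and 53.6 CPM with shGOLM1, 1.84-fold lower, with both shGOLM1 libraries below both controls and close to each other. CALU, a related calcium-binding protein, was at 205 and 205 CPM in the scrambled controls against 276 and 402 CPM with shGOLM1, above both controls in both libraries. Of the 9 tested, 3 lay higher in both and 1 lower in both, against 25.2% and 26.5% of all genes.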
